A study of Mus musculus with 11 samples.

Results

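The genes described here make serine, asparagine and proline and pass single carbon units from serine to folate. They are 10 enzyme genes of the mouse, chosen by symbol: Phgdh, Psat1 and Psph of serine synthesis, Shmt1, Shmt2, Mthfd1l and Mthfd2 of folate metabolism, Asns of asparagine synthesis, and Aldh18a1 and Pycr1 of proline synthesis. Each symbol matched 1 of the 48709 gene IDs in the count tables, and all 10 passed the filter on low counts. RNA sequencing was done on primary hippocampal neurons that had been cultured for 10 days at 20% oxygen. The hypoxia group (5 libraries) was then held at 1% oxygen for 4 h, and the control group (6 libraries) stayed at 20% oxygen and came from the same isolation. The sources used here do not give strain, genotype or age of the mice, nor whether libraries of a group came from separate dishes, so p-values measure the spread between these libraries, which may be technical.

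Serine is made from a glycolytic intermediate, phosphoglycerate, in 3 steps. Phgdh oxidises phosphoglycerate, Psat1 adds an amino group taken from glutamate, and Psph removes the phosphate. The SHMT enzymes split serine into glycine and a carbon unit carried on folate. In mitochondria, Mthfd2 oxidises that unit and Mthfd1l releases it as formate, which Mthfd1 takes up into folate again in the cytosol for the making of purines and methyl groups. Asns makes asparagine from aspartate with nitrogen from glutamine. Aldh18a1 turns glutamate into the precursor that the PYCR enzymes reduce to proline. In the brain the serine pathway is best known in astrocytes, and in many cell types several of these genes are targets of the transcription factor ATF4, which cells make in larger amounts during the integrated stress response.

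Levels are given as CPM, reads per 1000000 of a TMM-scaled library, and fold changes as hypoxia over control from edgeR's quasi-likelihood test over 16235 genes, with Benjamini-Hochberg adjusted p-values over all of them and a threshold of 0.05. Library totals ran from 2.27e+07 to 3.19e+07 counts in hypoxia and from 1.66e+07 to 3.14e+07 in control. Among the 10 genes, 7 were higher in hypoxia, 3 did not pass the threshold and none was lower. Over all genes tested, 10.1% were higher and 12.8% lower. In 6 of the 10 genes every hypoxia library lay above every control library, which 6.72% of all genes tested did, and in none of the 10 did every hypoxia library lie below, which 7.26% of all genes did. The median log2 fold change was 0.24 for the 10 genes and -0.02 for all genes tested. The 10 genes were chosen with earlier results of these data known, so these shares are a description and not independent evidence. In bulk RNA, fewer cells of a type and less RNA per cell cannot be told apart.

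**Figure D1:**
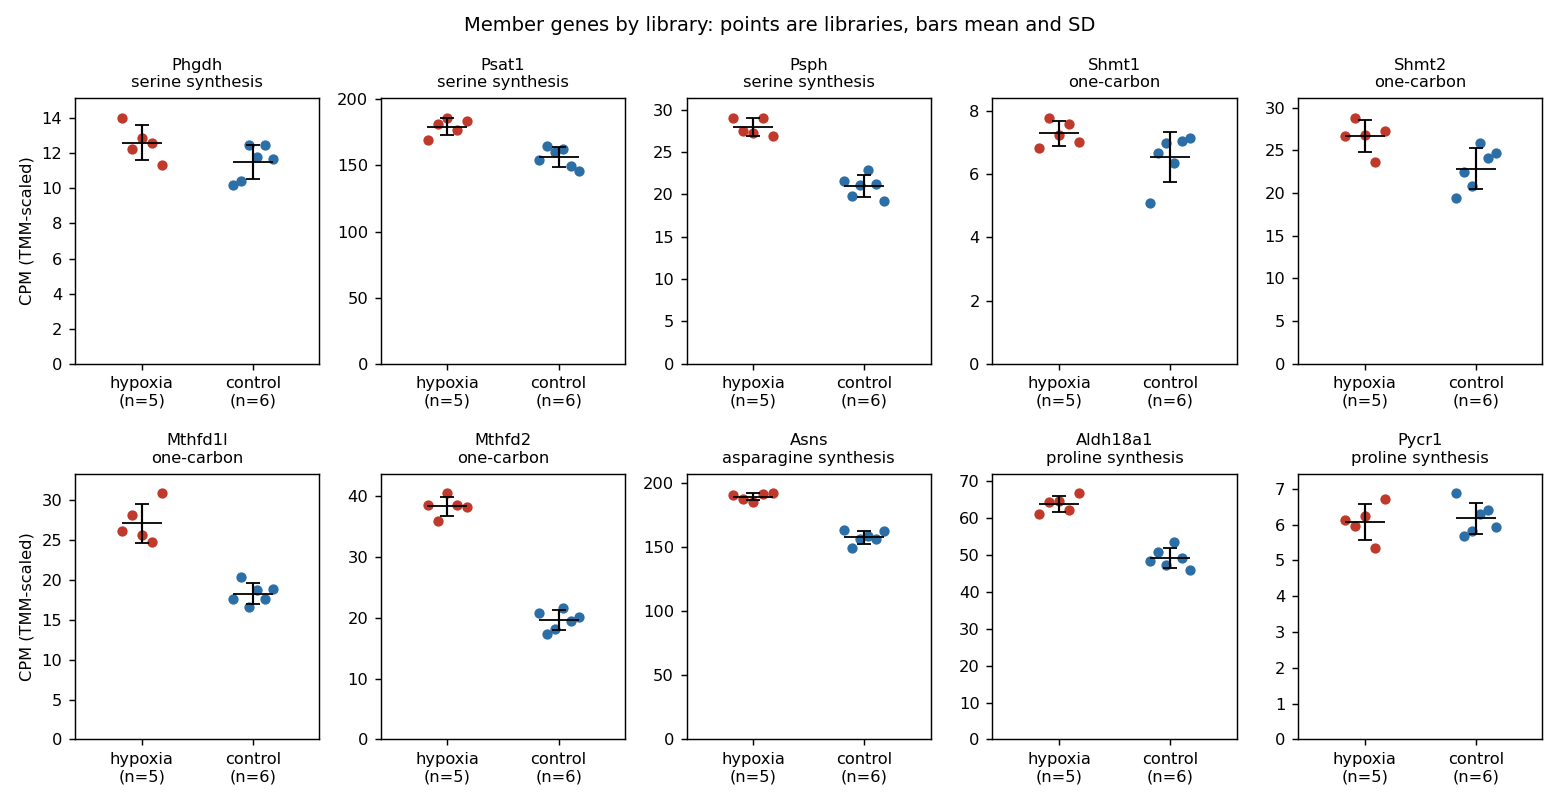
CPM of each gene (vertical axes from 0) in the hypoxia and control libraries, with 1 point per library and bars for the mean and SD. The groups are apart for Psat1, Psph, Mthfd1l, Mthfd2, Asns and Aldh18a1, and overlap for Phgdh, Shmt1, Shmt2 and Pycr1.

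Within serine synthesis Psat1 and Psph were higher and Phgdh did not pass the threshold. Psph, the phosphatase of the last step (ENSMUSG00000029446, chromosome 5, 129765558 to 129787449, minus strand), was at 29.1, 27.5, 27.2, 29.0 and 26.9 CPM in hypoxia libraries 1 to 5, and in control libraries at 19.2 CPM at the lowest, 21.2 at the median and 22.9 at the highest. The groups do not overlap. It rose 1.33-fold (log2 fold change 0.41, SE 0.05, adjusted p = 2.86e-05). Of its exon bases, 10.4% also lie in Cct6a, a chaperonin subunit gene on the other strand, and the library kit does not mark strand. Cct6a was at 387 ± 14.2 CPM in hypoxia and 368 ± 23.4 CPM in control (adjusted p = 0.241).

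Psat1, the aminotransferase (ENSMUSG00000024640, chromosome 19, 15904678 to 15947337, minus strand), had 169, 181, 186, 176 and 184 CPM in hypoxia libraries 1 to 5, against a lowest, median and highest control value of 146, 157 and 165 CPM. Again no hypoxia library fell into the control range, though hypoxia 1 came close to it. The rise was 1.15-fold (log2 fold change 0.20, SE 0.04, adjusted p = 0.00169).

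Phgdh, the dehydrogenase of the first step (ENSMUSG00000053398, chromosome 3, 98313170 to 98339990, minus strand), was at 14.0, 12.2, 12.9, 12.6 and 11.3 CPM in hypoxia libraries 1 to 5, against 10.2, 11.7 and 12.5 CPM as the lowest, median and highest control value. The groups overlap, with hypoxia 1 highest and control 1 lowest. The log2 fold change was 0.12, with a 95% interval from -0.03 to 0.28 (adjusted p = 0.241), which includes the size of the change seen for Psat1. The Phgdh counts are uncertain for another reason. Of all 50-base stretches of its annotated transcripts, the length of the reads, 47.8% also occur in transcripts of other annotated genes. These are at least 14 genes, among them the processed pseudogenes Gm7901 and Gm9347. How reads that match several places were counted is not given in the sources used here, and its level may cover only part of its reads. Gm7901 itself held 10 to 30 counts per library in hypoxia and 12 to 33 in control.

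Mthfd2 and Mthfd1l, both of mitochondrial folate metabolism, had the largest fold changes of the 10 genes. Mthfd2, the mitochondrial dehydrogenase and cyclohydrolase (ENSMUSG00000005667, chromosome 6, 83305691 to 83325908, minus strand), was at 38.6, 35.9, 40.45, 38.45 and 38.1 CPM in hypoxia libraries 1 to 5, and its lowest, median and highest control values were 17.3, 19.8 and 21.7 CPM. The lowest hypoxia library was far above the highest control library. The gene rose 1.96-fold (log2 fold change 0.97, SE 0.06, adjusted p = 8.27e-09). Mthfd1l, the mitochondrial formate-releasing synthetase (ENSMUSG00000040675, chromosome 10, 3973118 to 4167081, plus strand), had 26.1, 28.1, 25.6, 24.8 and 30.8 CPM in hypoxia libraries 1 to 5, against 16.6, 18.1 and 20.4 CPM as the lowest, median and highest control value. It rose 1.48-fold (log2 fold change 0.57, SE 0.06, adjusted p = 1.30e-05), again with no overlap between the groups, and hypoxia 5 stood highest.

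The 2 serine hydroxymethyltransferases had smaller fold changes. Shmt2, the mitochondrial enzyme (ENSMUSG00000025403, chromosome 10, 127517123 to 127522444, minus strand), was at 26.7, 28.8, 26.75, 23.65 and 27.3 CPM in hypoxia libraries 1 to 5, against 19.4, 23.3 and 25.9 CPM as the lowest, median and highest control value. Hypoxia 4 lay inside the control range. The gene passed the threshold at 1.16-fold (log2 fold change 0.22, SE 0.07, adjusted p = 0.0370). This call was lost without hypoxia 1, 2, 3 or 5 or control 2 or 3, at adjusted p-values of 0.0637, 0.0799, 0.0694, 0.0607, 0.0642 and 0.0837. Its exons share 32 bases with Ndufa4l2, a gene on the other strand, which was at 1.27 ± 0.772 CPM in hypoxia and 0.786 ± 0.290 CPM in control (adjusted p = 0.145). Shmt1, the cytosolic enzyme (ENSMUSG00000020534, chromosome 11, 60788104 to 60811718, minus strand), averaged 7.30 ± 0.396 CPM in hypoxia and 6.55 ± 0.779 CPM in control (SD, n = 5 and 6), with a log2 fold change of 0.14 and a 95% interval from -0.03 to 0.32 (adjusted p = 0.241). The groups overlap, and the lowest library of all was control 1 at 5.08 CPM. Some of its exon bases, 4.74%, also lie in Smcr8 on the other strand, which was at 68.8 ± 2.29 CPM in hypoxia and 52.9 ± 1.68 CPM in control (adjusted p = 2.82e-06). What part reads of Smcr8 have in the Shmt1 value was not tested.

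Asns, the asparagine synthetase (ENSMUSG00000029752, chromosome 6, 7675169 to 7693254, minus strand), was the most abundant of the 10 transcripts. It had 191, 188, 186, 192 and 192 CPM in hypoxia libraries 1 to 5, and control values of 149.7, 158 and 163 CPM at the lowest, median and highest. The hypoxia libraries lay close together and all above the control range. The rise (log2 fold change 0.26, SE 0.03, adjusted p = 2.31e-05) was smaller than that of Mthfd2 but came with a smaller error.

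The first and last steps of proline synthesis differed in what the test found. Aldh18a1, the synthase of the first steps (ENSMUSG00000025007, chromosome 19, 40550257 to 40588463, minus strand), was at 61.1, 64.3, 64.6, 62.2 and 66.7 CPM in hypoxia libraries 1 to 5, against 45.9, 48.6 and 53.4 CPM as the lowest, median and highest control value. It rose 1.30-fold (log2 fold change 0.38, SE 0.04, adjusted p = 1.25e-05), and its groups do not overlap. Pycr1, a mitochondrial reductase of the last step (ENSMUSG00000025140, chromosome 11, 120635712 to 120643769, minus strand), was at 6.14, 5.95, 6.24, 5.34 and 6.73 CPM in hypoxia libraries 1 to 5, and its lowest, median and highest control values were 5.68, 6.12 and 6.87 CPM. The groups overlap over most of their range, with the highest library in control and the lowest in hypoxia. The log2 fold change was -0.01 with a 95% interval from -0.18 to 0.16 (adjusted p = 0.936), so a change of the size seen for Aldh18a1 lies outside the interval. The interval rests on 132 to 213 counts per library in hypoxia and 115 to 199 in control.

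Levels of different genes were compared per kb of annotated exon, the union over all isoforms. In hypoxia the order was Asns at 69.4 ± 1.05, Psat1 at 42.2 ± 1.58, Aldh18a1 at 15.7 ± 0.538, Mthfd2 at 10.98 ± 0.463, Shmt2 at 8.57 ± 0.605, Psph at 6.45 ± 0.240, Mthfd1l at 6.11 ± 0.549, Phgdh at 5.07 ± 0.395, Shmt1 at 1.88 ± 0.102 and Pycr1 at 1.55 ± 0.128 CPM per kb. In control the same 3 genes led, at 57.8 ± 1.84 CPM per kb for Asns, 36.7 ± 1.77 for Psat1 and 12.1 ± 0.653 for Aldh18a1. The next place differed between the groups. In hypoxia every library had more Mthfd2 per kb than any had Shmt2. In control Shmt2 at 7.36 ± 0.789 CPM per kb stood above Mthfd2 at 5.62 ± 0.465 CPM per kb. These control ranges only just do not overlap, with the lowest Shmt2 library at 6.25 and the highest Mthfd2 library at 6.21 CPM per kb. In CPM without exon length the control ranges overlap, at 19.4 to 25.9 for Shmt2 and 17.3 to 21.7 for Mthfd2. Psph, Phgdh and Mthfd1l were neighbours whose control ranges overlapped pairwise, at 4.84 ± 0.302, 4.63 ± 0.394 and 4.12 ± 0.295 CPM per kb in control. The place of Phgdh in either order is uncertain, since its count may cover only part of its reads. Shmt1 and Pycr1 were lowest in both groups, and their ranges overlapped in control.

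**Figure D2:**
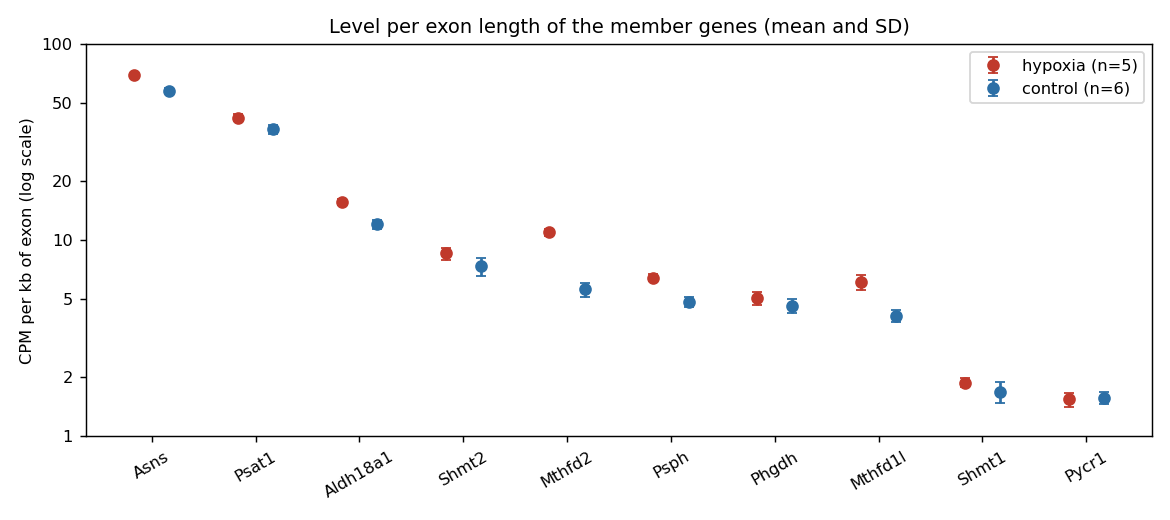
Level of the 10 genes as CPM per kb of exon (log axis), mean and SD over 5 hypoxia and 6 control libraries, ordered by the control mean. Mthfd2 stands above Shmt2 in hypoxia and below it in control, and Asns and Psat1 are highest in both groups.

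The wider pathway was read from lists of related genes. The calls of each list stand beside 10.1% higher and 12.8% lower over all genes tested. Of 14 tested genes of serine and glycine handling beside the 3 enzymes above, 2 were higher and 2 lower, with a median log2 fold change of 0.00. Slc1a4, a carrier of serine and other small neutral amino acids, was higher at 280.1 ± 5.52 CPM in hypoxia and 218 ± 4.22 CPM in control (log2 fold change 0.36, adjusted p = 4.76e-07). Gcat, which breaks threonine down to glycine, was higher at 13.5 ± 0.601 CPM in hypoxia and 11.8 ± 0.869 CPM in control (adjusted p = 0.0374). Its count is uncertain, since 47.5% of its exon bases are also annotated to a further gene entry of the same name and strand. The 2 lower genes, Gldc and Amt, encode subunits of the mitochondrial glycine cleavage system. Gldc had 19.7 ± 1.52 CPM in hypoxia and 22.2 ± 1.19 CPM in control (adjusted p = 0.0402), and Amt 16.1 ± 1.29 CPM in hypoxia and 18.3 ± 0.998 CPM in control (adjusted p = 0.0375). The other subunits, Gcsh and Dld, had log2 fold changes of 0.00 and -0.05 and did not pass. These 3 small changes were the least stable of the list: leaving out single libraries took the adjusted p up to 0.0781 for Gcat (lost without hypoxia 1, 2 or 4 or control 2 or 3), 0.141 for Gldc and 0.131 for Amt (both lost without hypoxia 1, 2, 3 or 4 or control 2, 3, 5 or 6).

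Of 17 folate genes tested beside the 4 enzymes above, 13 were not called, 2 were higher and 2 lower, shares near those over all genes tested (10.1% higher and 12.8% lower). Their median log2 fold change was -0.05. Mthfd2l, the paralog of Mthfd2 in mitochondria, was lower at 4.43, 5.38, 4.996, 6.11 and 6.41 CPM in hypoxia libraries 1 to 5, against 6.43, 7.19 and 7.99 CPM as the lowest, median and highest control value. The groups only just do not overlap, since hypoxia 5 lay just under the lowest control library. The test gave a log2 fold change of -0.39 (SE 0.10, adjusted p = 0.00852). Mtfmt, which uses a folate carbon unit to formylate the initiator tRNA of mitochondria, was lower at 10.1 ± 0.366 CPM in hypoxia and 11.6 ± 0.806 CPM in control (adjusted p = 0.0317), a call lost without any hypoxia library or without control 1, 4 or 5, at up to 0.0785. Aldh1l2, the mitochondrial enzyme that oxidises formyl folate to carbon dioxide, was higher at 36.4 ± 2.56 CPM in hypoxia and 29.9 ± 2.41 CPM in control (log2 fold change 0.29, adjusted p = 0.00248). Of its exon bases, 14.1% also lie in D10Wsu102e on the other strand, whose part in the count was not tested. The cytosolic counterpart of Aldh1l2, Aldh1l1, also an astrocyte marker, was at 51.0 ± 2.87 CPM in hypoxia and 50.5 ± 4.24 CPM in control (adjusted p = 0.903). It shares 13.4% of its exon bases with other annotated genes. Mtrr, which reactivates methionine synthase, was higher at 16.0 ± 0.574 CPM in hypoxia and 13.8 ± 0.974 CPM in control (adjusted p = 0.0153). Mthfd1, the cytosolic enzyme with 3 activities, was at 31.9 ± 1.17 CPM in hypoxia and 31.4 ± 1.68 CPM in control, with a 95% interval of the log2 fold change from -0.07 to 0.12.

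**Figure D3:**
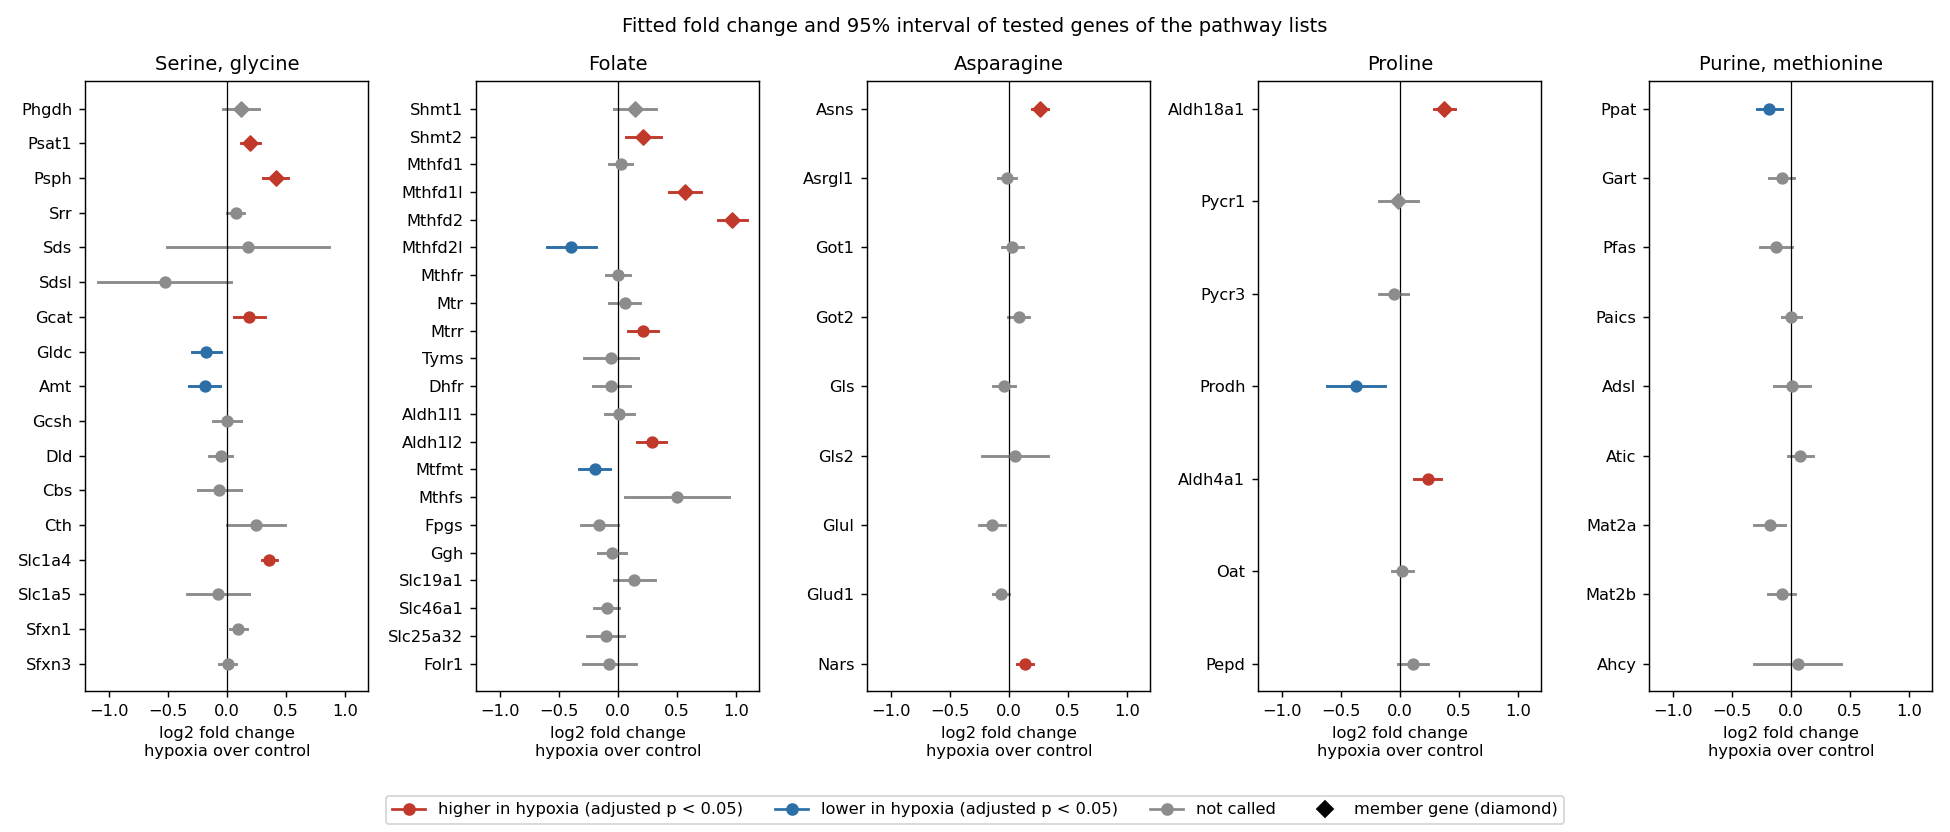
Log2 fold change (hypoxia over control) and 95% interval of tested genes in 5 lists, with diamonds for the 10 genes, red for higher, blue for lower and grey for not called. Mthfd2 lies furthest to the right at 0.97, and Mthfd2l is on the other side of 0 at -0.39.

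Beside Asns, 1 of 8 tested genes of asparagine, aspartate and glutamine conversion was higher and none lower. It was Nars, the cytosolic asparaginyl-tRNA synthetase, at 274 ± 7.44 CPM in hypoxia and 249 ± 7.73 CPM in control (log2 fold change 0.14, adjusted p = 0.00652). Aspg, an asparaginase, had 42 counts over all libraries and was not tested. Beside Aldh18a1 and Pycr1, 6 genes of proline metabolism were tested, of which 1 was higher and 1 lower. Both belong to proline breakdown. Prodh, which oxidises proline, was lower at 2.78 ± 0.348 CPM in hypoxia and 3.56 ± 0.485 CPM in control (log2 fold change -0.37, adjusted p = 0.0297). Leaving out hypoxia 4 or 5 or control 4, 5 or 6 ended the call of Prodh, at up to 0.0737. Aldh4a1, which turns the same intermediate into glutamate, was higher at 22.8 ± 1.18 CPM in hypoxia and 19.4 ± 1.19 CPM in control (log2 fold change 0.23, adjusted p = 0.00556), but 32.5% of its exon bases are also annotated to Gm21969, so its count is uncertain. Pycr3, a cytosolic reductase, did not pass the threshold, with a log2 fold change of -0.05.

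A list of purine synthesis and methionine cycle genes gave 1 call among 9 tested. Ppat, the first enzyme of purine synthesis, was lower at 21.7 ± 0.902 CPM in hypoxia and 24.6 ± 1.38 CPM in control (log2 fold change -0.18, adjusted p = 0.0141). Of its exon bases, 6.15% also lie in Paics on the other strand. The 2 purine enzymes that use formyl folate, Gart and Atic, had log2 fold changes of -0.08 and 0.08 and did not pass. Across this list the median was -0.08.

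Whether paired enzymes differed in response was tested on the ratio of their counts within each library, which needs no library scaling, with an exact 2-sided permutation test over the libraries and adjustment over 6 ratios, of which 5 are given. A count ratio depends on gene length, so only its change is read. The count ratio of Mthfd2 to Mthfd2l was 5.93 to 8.67 in hypoxia and 2.22 to 3.23 in control, 2.60-fold higher in hypoxia. The ratio of Mthfd2 to Mthfd1 was 1.17 to 1.22 in hypoxia and 0.569 to 0.703 in control, 1.92-fold higher. For Mthfd1l to Mthfd1 it was 0.766 to 0.947 in hypoxia and 0.543 to 0.670 in control, 1.45-fold higher. In each of these 3 ratios all 5 hypoxia libraries lay above all 6 control libraries, with an exact permutation p of 0.00216, the smallest this design allows (adjusted 0.00433). The ratio of Shmt2 to Shmt1 had overlapping ranges, 3.11 to 3.89 in hypoxia and 2.97 to 4.07 in control, and its log2 change of 0.06 did not pass (exact p = 0.506). Aldh18a1 to Aldh4a1 (log2 change 0.14, exact p = 0.0541, adjusted 0.0812) did not pass either. Without control 2 its adjusted p was 0.0238.

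**Figure D4:**
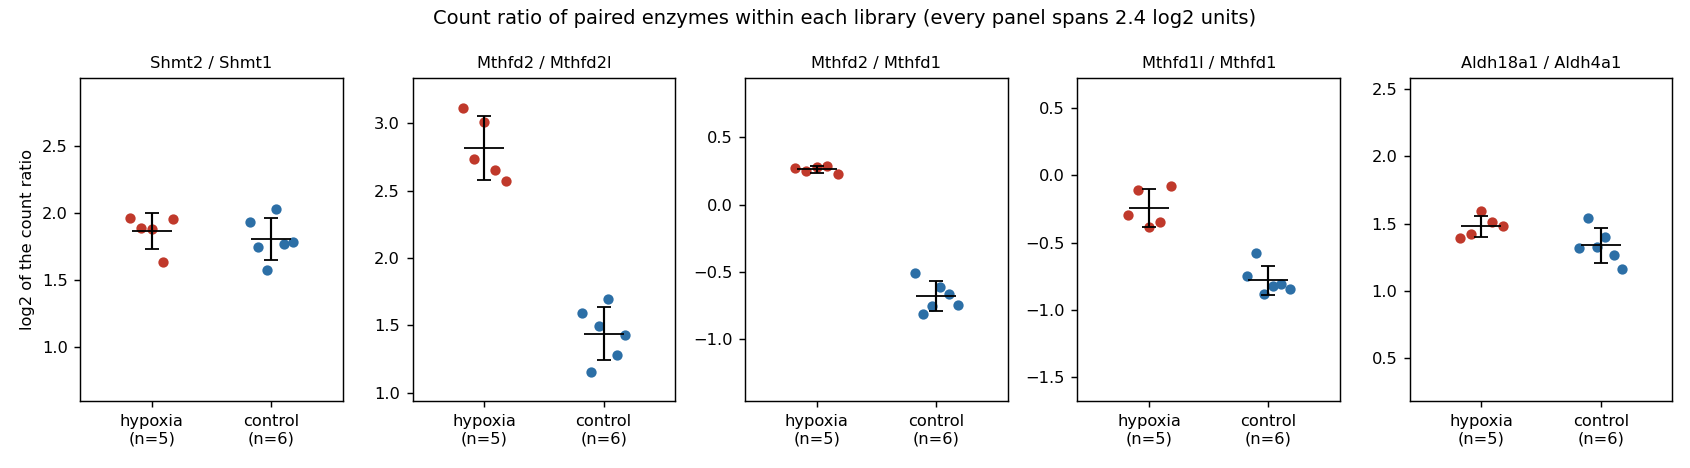
Log2 of the count ratio of 5 enzyme pairs within each library, with 1 point per library and bars for the mean and SD, hypoxia left and control right. All panels span the same log2 width, and the groups are apart for Mthfd2 to Mthfd2l, Mthfd2 to Mthfd1 and Mthfd1l to Mthfd1.

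Transcription factors known to act on these genes were measured in the same libraries. Of 10 tested, 4 were higher and none lower, against 10.1% higher and 12.8% lower over all genes tested. Atf4 had 298, 288, 286, 282 and 291 CPM in hypoxia libraries 1 to 5, against 126, 134 and 146 CPM as the lowest, median and highest control value. All hypoxia libraries lay far above all control libraries (log2 fold change 1.10, SE 0.04, adjusted p = 7.28e-11). Cebpg, a partner of ATF4 at amino acid response elements, was at 50.6 ± 2.48 CPM in hypoxia and 45.6 ± 1.32 CPM in control (log2 fold change 0.15, adjusted p = 0.0127), a call lost under the replicate block (adjusted p = 0.0604). Ddit3, which encodes CHOP, was at 22.8 ± 1.16 CPM in hypoxia and 15.4 ± 1.11 CPM in control, and Atf3 at 5.63 ± 0.605 CPM in hypoxia and 1.39 ± 0.132 CPM in control (log2 fold changes 0.56 and 2.02, adjusted p = 5.16e-06 and 2.52e-09). Of the exon bases of Ddit3, 10.9% are also annotated to other entries, among them Mars on the other strand. Myc, which acts on serine and proline genes in many dividing cells, had a log2 fold change of 0.04 and a 95% interval from -0.12 to 0.21. Nfe2l2, Cebpb, Atf5, Hif1a and Trp53 did not pass, with adjusted p-values of 0.101, 0.0971, 0.126, 0.0614 and 0.684. Hif1a had a log2 fold change of -0.11. It passed as lower in hypoxia without hypoxia 4 (adjusted p = 0.0316), and over all alternatives its adjusted p ran from 0.0316 to 0.186. Cebpb, with a log2 fold change of 0.39, passed as higher without control 4 at 0.0404.

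The genes whose levels followed 4 of the enzymes most closely over the 11 libraries were named by Pearson correlation of log2 CPM, as a description. The points share the split into hypoxia and control, so any gene with a large difference scores high. For Mthfd2 the closest were Atf4 (r = 0.990), the translation factor Eif4b (0.989) and Slc1a4 (0.987). With the group means taken out, these values were 0.601, 0.607 and 0.535. Asns was followed most closely by the stathmin Stmn4 (0.985), the catenin Ctnna2 (0.981) and the cationic amino acid carrier Slc7a1 (0.980). Aldh18a1 went with Egr1 (0.977), Noct (0.977) and the alanine transaminase Gpt2 (0.975). Phgdh was itself not called, and its closest genes were Capn5 (0.957), Mrpl37 (0.954) and CK137956 (0.951), none of which passed the test between groups. The correlation of Phgdh with Atf4 was 0.532. With the group means taken out, the correlation with Atf4 was 0.099 for Phgdh, 0.269 for Asns and 0.493 for Aldh18a1. Among the 10 enzymes the median correlation over 45 pairs was 0.588 across all libraries and 0.03 with the group means taken out, where pairs ran from -0.643 to 0.744.

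Promoter sequences from RefSeq (GRCm38.p6) were available for all 10 genes, in windows from 250 bases before to 50 after the start. They were searched on both strands for TGATGNAA, the core of the C/EBP-ATF response element through which ATF4 acts, for ACGTG, the core of the hypoxia response element, and for CACGTG, the E-box, which holds ACGTG on both strands. TGATGNAA was found for 2 of the 10 genes, Asns and Pycr1, and in 3.97% of all 32851 windows. ACGTG was found for 5 genes (Psph, Psat1, Mthfd1l, Asns and Aldh18a1) and in 19.6% of all windows. CACGTG was found for Aldh18a1 alone of the 10, and in 7.15% of all windows. A match is only a match of letters. The 150 bases before the start are printed for the 2 genes with TGATGNAA, of which Asns rose and Pycr1 did not pass the test, for Aldh18a1 with its E-box, and for Mthfd2, the gene with the largest fold change, which had none of the 3 motifs in its window. The Mthfd2 stretch lies inside the gene span given above, and so does the Psat1 window with its ACGTG match. The RefSeq start used thus differs from the outer end of that span, and starts without a RefSeq window were not searched. Capitals mark TGATGNAA in Asns and Pycr1 and CACGTG in Aldh18a1. All 4 are on the minus strand and read 5′ to 3′ towards the gene, at chr6:7693210-7693359 (Asns), chr11:120643749-120643898 (Pycr1), chr19:40588464-40588613 (Aldh18a1) and chr6:83317605-83317754 (Mthfd2).
Asns: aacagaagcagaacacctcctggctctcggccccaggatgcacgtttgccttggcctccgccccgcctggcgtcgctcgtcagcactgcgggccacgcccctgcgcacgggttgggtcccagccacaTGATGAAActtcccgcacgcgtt
Pycr1: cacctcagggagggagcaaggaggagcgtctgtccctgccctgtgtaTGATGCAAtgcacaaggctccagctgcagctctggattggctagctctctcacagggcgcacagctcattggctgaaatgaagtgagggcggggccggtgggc
Aldh18a1: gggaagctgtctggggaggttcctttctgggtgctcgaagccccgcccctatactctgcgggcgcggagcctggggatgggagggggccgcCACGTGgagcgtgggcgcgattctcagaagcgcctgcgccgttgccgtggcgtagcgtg
Mthfd2: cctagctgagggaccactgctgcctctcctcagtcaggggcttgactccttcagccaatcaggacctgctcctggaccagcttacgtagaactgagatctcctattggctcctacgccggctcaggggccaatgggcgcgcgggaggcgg
The capitals begin 23 bases before the start in Asns, 103 bases before it in Pycr1 and 59 bases before it in Aldh18a1.

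Other cell types in the cultures were read from marker lists, whose sums cover the tested markers only. Their calls stand beside 10.1% higher and 12.8% lower over all genes tested. Of 10 astrocyte markers 9 were tested, with a summed level of 3304 to 3641 CPM in hypoxia and 3305 to 3626 CPM in control. Among these, Aqp4 was lower (adjusted p = 0.0269). Neuron markers summed to 9480 to 9909 CPM in hypoxia and 9109 to 9926 CPM in control, with 1 of 10 higher (Syn1). Neuron markers were thus abundant in all libraries, and so were astrocyte markers. Of 8 markers of the oligodendrocyte lineage 3 were lower (Olig1, Olig2 and Mog), with sums of 96.3 to 126 CPM in hypoxia and 114 to 160 CPM in control. Of 8 markers of dividing cells 2 were lower (Ccna2 and Birc5), with sums of 103 to 127 CPM in hypoxia and 116 to 145 CPM in control. None of the 8 had a log2 fold change above 0, and the list median was -0.22. Of 5 tested vascular markers Pdgfrb was higher and 4 did not pass, 3 of them with negative log2 fold changes (Cdh5 -0.74, Kdr -0.21 and Rgs5 -0.16) and a list median of -0.16, with sums of 42.3 to 51.9 CPM in hypoxia and 40.6 to 46.2 CPM in control. Microglia markers (6 of 8 tested, 16.0 to 18.9 CPM in hypoxia and 15.5 to 18.2 CPM in control) and fibroblast markers (154 to 313 CPM in hypoxia and 166 to 231 CPM in control) gave no call. The fibroblast sum of 313 CPM was that of hypoxia 5, and the other hypoxia libraries lay at 154 to 200 CPM. The part of any of these cell types in the enzyme values was not tested.

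The authors' deposited table of higher genes lists the same 7 enzymes that were higher here, and none of the 10 is in the authors' deposited table of lower genes. Other listed genes differed. Atf5 and Nfe2l2 (authors' adjusted p = 0.0233 and 0.0452), Got2, Sfxn1 and Pepd are in the table of higher genes but did not pass here. The neuron marker Stmn2 and the microglia marker Tmem119 are also in the table of higher genes (authors' adjusted p = 0.0208 and 0.0499) and did not pass here. Mat2a is in that of lower genes (authors' adjusted p = 0.00678) and did not pass here. Gldc, Amt, Prodh and the marker Olig2, lower here, are in neither. In the authors' deposited table Mthfd2 has a log2 fold change of 0.98, Mthfd1l one of 0.59, Psph 0.42, Aldh18a1 0.40, Asns 0.28, Shmt2 0.25 and Psat1 0.22. That table was made from the same libraries and is not independent of the values above.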

How the data were processed

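RNA was extracted with Trizol, polyadenylated transcripts were sequenced as single-end reads of 50 bp from TruSeq v2 libraries, per the labels' protocols. That kit does not mark strand. The authors deposited raw counts per Ensembl gene ID. STAR 2.5.2b, featureCounts, Subread 1.5.1, DESeq2, FastQC 0.11.5 and the mm10 build are named in the submitters' processing notes, and the annotation release is not given in the sources used here. The authors also deposited tables of log2 fold changes, adjusted p-values and a normalized signal. That deposited signal is per library and was not used.

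Symbols were matched for 48349 of 48709 gene IDs (Pycr3 through its RefSeq synonym Pycrl). The test was edgeR 4.0.16 (R 4.3.3) with filterByExpr, TMM factors and no covariate. The tested genes held 99.9% of counts. The SE is the log2 fold change over the square root of F. Ratios used counts plus 0.5. Exon lengths, overlaps and shared 50-base stretches come from GENCODE M21 (GRCm38, the same build as mm10). No pair of libraries of a group agreed within sampling noise, by the chi-square over genes per degree of freedom. It was 2.44 to 9.92 for hypoxia pairs and 2.31 to 4.98 among controls 3 to 6. Pairs with control 2 gave 13.2 to 26.3, and control 1 with controls 3 to 6 gave 8.51 to 14.0. The members and lists were chosen with earlier results of these data known. Named genes are the 10 members, 10 transcription factors, the ratio partners and, in each list, up to 6 called genes of smallest p-value. Others were named after their values were seen. Results of 1 gene, its ratio included, are not reported here.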

Additional observations from a re-analysis of the deposited data

Results flagged for a closer look

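A library stood apart from the rest of its group in 2 of 80 groups of values searched, where chance alone gives about 1 in 20. Aldh1l2 was at 34.8 CPM in control 2 and at 28.6 to 29.2 CPM in the other 5 control libraries, and 33.1 to 39.8 CPM in hypoxia. The count ratio of Shmt2 to Shmt1 was 3.11 in hypoxia 4 and 3.68 to 3.89 in the other 4 hypoxia libraries, against 2.97 to 4.07 in control.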

How the results depend on the processing

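The fits differed from the one reported in the scaling, the filter, the tool, a replicate block or 1 library left out, 17 alternatives in all. The count of enzymes higher stayed at 6 or 7 and the count lower at 0. The counts of all genes higher and lower ran from 1297 to 2081 and from 1500 to 2114. Shmt2 was the enzyme that lost its call, in 7 alternatives, with an adjusted p of 0.0544 under the replicate block. Without 1 library its log2 fold change ran from 0.19 to 0.26. Pycr1, not called in any, had a log2 fold change of 0.00549 with DESeq2 1.42.0 and of -0.0512 to 0.0305 without 1 library.

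With no filter on low counts the calls of Gcat, Amt, Gldc, Mtfmt and Prodh were lost (adjusted p = 0.0712, 0.098, 0.104, 0.116 and 0.0551). The DESeq2 test ended the calls of Amt, Gldc and Mtfmt (0.0504, 0.0562 and 0.0597), and DESeq2 size factors that of Gldc (0.0522). The replicate block also ended the calls of Cebpg, Gcat, Amt, Gldc, Mtfmt and Prodh (adjusted p = 0.0604, 0.0526, 0.109, 0.0799, 0.0699 and 0.116). Same-numbered libraries did not deviate together throughout (correlations from -0.385 to 0.368 with group means taken out). Hypoxia 5 correlated best with control 5, and the other hypoxia libraries correlated best with a control of another number. These few values cannot decide whether same-numbered libraries share a batch. Among the enzymes, transcription factors and pathway genes refitted with the block, it changed no other call. Marker genes and overlapping neighbours were not refitted. Paired by number, the log2 changes of Mthfd2 to Mthfd2l, Mthfd2 to Mthfd1 and Mthfd1l to Mthfd1 were 1.37, 0.93 and 0.53 (adjusted p = 0.125), where 5 pairs allow no exact p under 0.0625. Without 1 library the log2 changes of Aldh18a1 to Aldh4a1 ran from 0.11 to 0.19. Pycr1, Shmt1 and Phgdh had at most 387 counts in a library, which limits their intervals. The cause of each lost call was not tested.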
